A study of Homo sapiens with 14 samples.

Results

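The genes LIF, OSM, CLCF1, IL6 and IL11 for cytokines of the interleukin 6 (IL6) family, OSMR and IL6ST for their receptors, and STAT3 and SOCS3 for their signalling carried 46 of the 13808 KMT2D peaks found in glucose-deprived SCC23 cells. A peak was counted when its summit, the position of highest enrichment, lay within 50 kb of 1 of these 9 genes. The peaks were selected on the summit positions of this same list, and the genes were picked with its fold enrichments and peak counts known, so counts and levels are given as a description and were not tested. Gene positions are GRCh37 boundaries to the nearest 1 kb.

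SCC23 is an established human tumor cell line from head and neck squamous carcinoma (HNSCC). The library was a ChIP-seq of KMT2D in KMT2D-WT cells (genotype Wild Type) under the Low Glucose condition, kept without glucose for 6 h. The series described 14 samples, and the peak list of 1 of them, the KMT2D library, was analysed. There was 1 library of 1 cell line and no replicate, no KMT2D-KO and no glucose-fed counterpart was analysed here, and the identity of the cells could not be checked against marker genes because this list holds no expression.

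Cytokines of this family signal through receptors that share the IL6ST protein, also called gp130. LIF and OSM are secreted cytokines with neighbouring genes, and CLCF1 is a cytokine that acts through the ciliary neurotrophic factor receptor. OSMR is the receptor chain for OSM. Bound receptors activate JAK kinases, which phosphorylate the transcription factor STAT3, and STAT3 induces SOCS3, a feedback inhibitor of the same receptors. In squamous epithelia and their tumors the family is known for roles in inflammation, wound repair and growth. KMT2D is a histone methyltransferase that places H3K4me1 at enhancers and is also found at promoters.

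The start of a gene lay under or beside a KMT2D peak at 7 of the 9 genes. These were LIF, CLCF1, IL6, IL11, OSMR, IL6ST and SOCS3, each with a peak within 2 kb of the 5′ end, and LIF had 2 such peaks. OSM and STAT3 had none. With a q-value limit of 0.05 the number fell from 7 to 3 genes, LIF, CLCF1 and OSMR, since the start peaks of IL6, IL11, IL6ST and SOCS3 had q-values of 0.22 or 1. The share of all gene starts with a peak was not analysed here. RefSeq promoter sequences were at hand for 6 of the 9 genes (build GRCh38.p14). The 250 bases before the start are shown for the 5 of them that had a peak at the start. No coordinate was converted between builds, so whether a window lies next to its peak was not checked. Capitals mark matches, on either strand, to 4 short motifs: TTCNNNGAA for STAT factors, TGANTCA for AP-1, GGGCGG for the GC box and GGAATG for TEAD factors. GC box matches can overlap each other.
IL6 (chr7:22726950-22727199, plus strand): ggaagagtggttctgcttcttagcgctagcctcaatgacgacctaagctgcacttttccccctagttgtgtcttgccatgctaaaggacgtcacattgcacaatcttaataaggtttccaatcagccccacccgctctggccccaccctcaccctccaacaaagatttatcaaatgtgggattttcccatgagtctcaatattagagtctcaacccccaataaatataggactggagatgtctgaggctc
IL11 (chr19:55370464-55370713, minus strand): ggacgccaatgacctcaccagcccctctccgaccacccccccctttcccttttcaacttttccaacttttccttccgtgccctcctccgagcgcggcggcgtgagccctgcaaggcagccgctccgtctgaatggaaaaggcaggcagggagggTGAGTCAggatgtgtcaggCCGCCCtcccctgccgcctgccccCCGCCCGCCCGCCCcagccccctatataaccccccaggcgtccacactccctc
OSMR (chr5:38845762-38846011, plus strand): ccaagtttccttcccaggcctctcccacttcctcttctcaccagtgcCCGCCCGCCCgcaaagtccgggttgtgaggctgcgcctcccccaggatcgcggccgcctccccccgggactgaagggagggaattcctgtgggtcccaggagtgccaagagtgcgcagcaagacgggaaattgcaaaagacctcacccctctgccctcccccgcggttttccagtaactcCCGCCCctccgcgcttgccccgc
IL6ST (chr5:55994964-55995213, minus strand): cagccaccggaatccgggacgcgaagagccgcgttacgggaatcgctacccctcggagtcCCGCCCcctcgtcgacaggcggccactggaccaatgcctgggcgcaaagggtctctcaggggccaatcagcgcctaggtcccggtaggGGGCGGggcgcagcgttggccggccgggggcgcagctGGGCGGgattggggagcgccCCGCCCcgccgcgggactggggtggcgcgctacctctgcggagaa
SOCS3 (chr17:78360926-78361175, minus strand): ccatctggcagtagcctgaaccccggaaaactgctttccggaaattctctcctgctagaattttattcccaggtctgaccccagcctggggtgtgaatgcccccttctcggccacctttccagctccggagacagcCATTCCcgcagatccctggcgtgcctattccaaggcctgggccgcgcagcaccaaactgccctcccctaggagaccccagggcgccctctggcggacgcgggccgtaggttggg

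The AP-1 motif stood once in the IL11 sequence, beginning 96 bases before the start, and in none of the other 4. It occurs in 6.57% of all 35097 RefSeq promoter windows of this length. The TEAD motif stood once in SOCS3, with its first base 114 bases before the start, and is present in 11.9% of all windows. The GC box was found 4 times each in IL11 and IL6ST and 3 times in OSMR, against at least 1 match in 42.6% of all windows. The STAT motif, present in 6.56% of all windows, was in none of the 5 sequences, and IL6 held none of the 4 motifs. RefSeq gives 2 starts for SOCS3, and the window of the start not shown also held none of the 4 motifs. Sequence outside these windows was not searched, so whether a STAT motif lies elsewhere near SOCS3 was not tested. These matches describe the letters of each window only. IL6 also had the lowest GC content of the 5, with 47.6%, against 73.6% in IL6ST and a median of 58.0% over all windows. LIF, OSM and CLCF1 had no entry.

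The depth behind a start peak varied widely. How many ChIP fragments lay over a summit was recovered from the deposited fold and p, and is given with its exact 95% Poisson interval, which covers counting error only and not the choice of the summit as the highest point. The genome-wide background corresponds to 2.88 fragments. At CLCF1, 146 fragments lay over the summit (interval 123 to 172). The next start peaks were those of LIF, with 30 fragments (20.2 to 42.8) and 27 (17.8 to 39.3). The interval of CLCF1 lay above those of all other start peaks. The genes were picked with fold enrichments known, so this separation is a description only. OSMR had 22 (13.8 to 33.3), IL6 had 18 (10.7 to 28.4), IL11 had 17 (9.90 to 27.2), and IL6ST and SOCS3 had 13 each (6.92 to 22.2). From LIF down to IL6ST and SOCS3 the intervals of neighbours in this order overlapped. The smallest number in the whole list was 11.

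**Figure D1:**
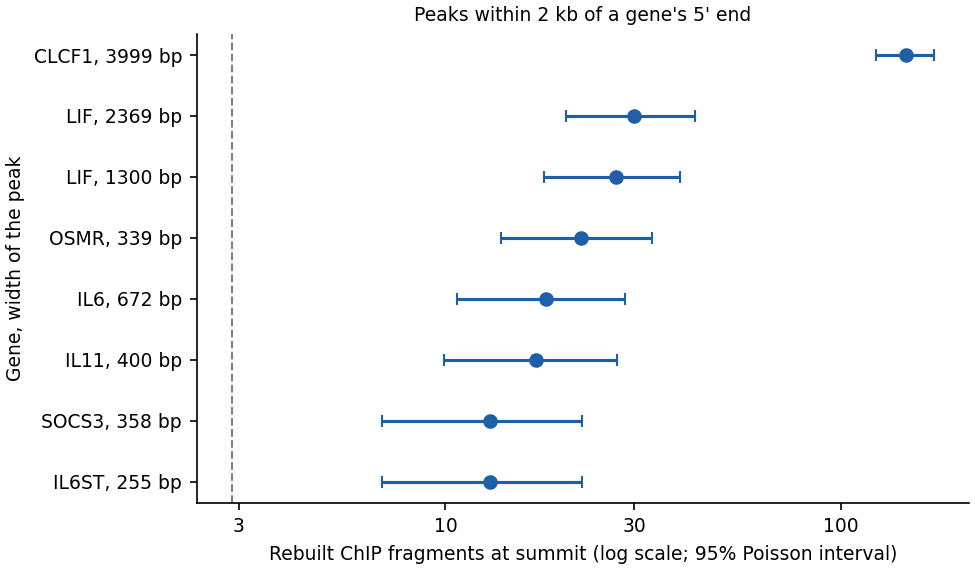
Rebuilt ChIP fragments over the summit (horizontal axis, log scale) of the 8 peaks within 2 kb of a gene's 5′ end, 1 row per peak, with exact 95% Poisson intervals as bars and the genome-wide background of 2.88 fragments as a dashed line. CLCF1 stands apart at 146 fragments, and the other 7 peaks lie between 13 and 30.

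CLCF1 carried the peak with the highest fold enrichment of all 13808. Fold enrichment, the ratio of scaled ChIP signal to local background at the summit with a constant added to both, was 26.9 (q-value 1.1e-66). The peak covered chromosome 11 positions 67139886 to 67143884, which is 3999 bp and the 2nd widest interval in the list. Its summit lay 0.1 kb from the 5′ end of the gene, which is on the minus strand and starts at about 67142000. That is less than the 1 kb rounding of gene positions, so the summit cannot be placed inside or outside the gene. The peak as a whole spanned the 5′ end. The local background there was at the genome-wide level.

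The other 7 peaks near CLCF1 were far weaker, with fold enrichment between 2.53 and 4.10. On the 5′ side, towards RAD9A, 3 narrow peaks followed within 5.2 kb of the start. Their fold enrichment was 3.02 at 2.4 kb, 4.10 at 3.2 kb and 3.53 at 5.2 kb, with q-values of 0.99, 0.04 and 0.00029. A further peak lay 27.1 kb before the start (2.87, q-value 1). On the 3′ side, towards POLD4, fold enrichment was 3.24 at 9.8 kb beyond the gene (q-value 0.011), 2.53 at 11.1 kb (q-value 1) and 2.60 at 47.1 kb (q-value 1). The start peak and 3 of these 7 passed a q-value limit of 0.05, and the start peak alone was broad.

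Low fold enrichment did not always mean few fragments. At the peak 5.2 kb before CLCF1, 53 fragments (39.7 to 69.3) lay over the summit, more than at either LIF start peak, but the local background was raised 4.56 times over the genome as a whole. That background equalled 5 control fragments, whose own exact Poisson interval is 1.62 to 11.7. Of the 46 peaks, 6 had a background raised 2 times or more (13.0%, against 18.6% of all peaks), set by 3, 4 or 5 control fragments. These were 3 peaks of CLCF1, 2 of SOCS3 and 1 shared by LIF and OSM.

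LIF and OSM shared the densest set. There were 16 peaks within 50 kb of LIF, and 11 of them also lay within 50 kb of OSM, which added none of its own. Over the joint window of 127 kb on chromosome 22 this came to 126 peaks per Mb (exact 95% Poisson interval 72.0 to 205), 12.6 times the 9.97 per Mb of the chromosome. The intervals given for peak densities treat peaks as independent, which close neighbours need not be. Of the 16 peaks, 15 formed 1 cluster when peaks were joined over gaps of up to 12500 bp, from position 30591967 to 30654221. Peaks covered 29% of these 62255 bp. The number of peaks in it depended on the joining distance and fell to 5 with gaps of up to 5 kb.

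The strongest peaks of the cluster lay on both sides of LIF. Beyond the 3′ end, towards HORMAD2, the peak at positions 30601261 to 30603456 had a fold enrichment of 22.9 with 136 fragments (114 to 161) and ranked 5th in the list and 2nd on chromosome 22. Its summit was 32.9 kb past the 3′ end of LIF. Its interval overlapped that of the CLCF1 start peak, and whether these 2 sites differ in fragments over the summit was not tested.

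The next strongest lay before the start of LIF, at positions 30646251 to 30649941. It was 3691 bp wide, the 4th widest peak of the list, with a fold enrichment of 17.2 and 92 fragments (74.2 to 113). Its summit was 3.9 kb upstream of LIF, in the 16 kb between LIF and OSM. Because both genes are on the minus strand, the same site lay 12.1 kb past the 3′ end of OSM.

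Further strong sites on the 3′ side of LIF had fold enrichments of 13.3 at 29.5 kb past the gene, 10.7 at 27.2 kb and 12.3 at 11.2 kb, with 80, 67 and 81 fragments. Their exact intervals overlapped one another (63.4 to 99.6, 51.9 to 85.1 and 64.3 to 101). The outermost peak of the cluster on this side, 43.7 kb past the gene, had a fold enrichment of 8.18. Another 5 peaks on this side were weaker. Their fold enrichment was 4.76 at 31.0 kb, 5.15 at 22.1 kb, 2.86 at 15.7 kb, 5.38 at 13.3 kb and 5.03 at 4.1 kb past the gene. The lowest of them stood over a local background of 4 control fragments and had a q-value of 0.12.

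The start of LIF itself had a peak of middling strength for its cluster, below the strongest sites. The peak over the 5′ end, at positions 30642042 to 30644410, was 2369 bp wide and had a fold enrichment of 5.93 (q-value 1.2e-05), equal to the cluster's median, with its summit 1.0 kb upstream. A peak 1300 bp wide followed at once, with a fold enrichment of 5.37 and its summit 2.4 kb upstream. The fragments over both summits, 30 and 27, had intervals below that of the site 3.9 kb upstream. Towards OSM, a weak peak 9.1 kb upstream (3.72, q-value 0.067) and a stronger one 10.8 kb upstream (9.17, q-value 3.4e-13) closed the cluster.

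OSM lay in a gap. No peak touched its gene body, and the interval between peaks that contained it was 32352 bp long, the longest in the set, against a median of 1973 bp. The nearest peak edge was 4.8 kb past its 3′ end and 23.6 kb before its start. The peak on the far side of the gap, towards CASTOR1, had a fold enrichment of 3.38, 16 fragments and a q-value of 0.22. All 10 peaks on the 3′ side of OSM, including the sites with fold enrichments of 17.2 and 12.3, were at the same time LIF peaks, so the files cannot assign them to 1 gene or the other.

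**Figure D2:**
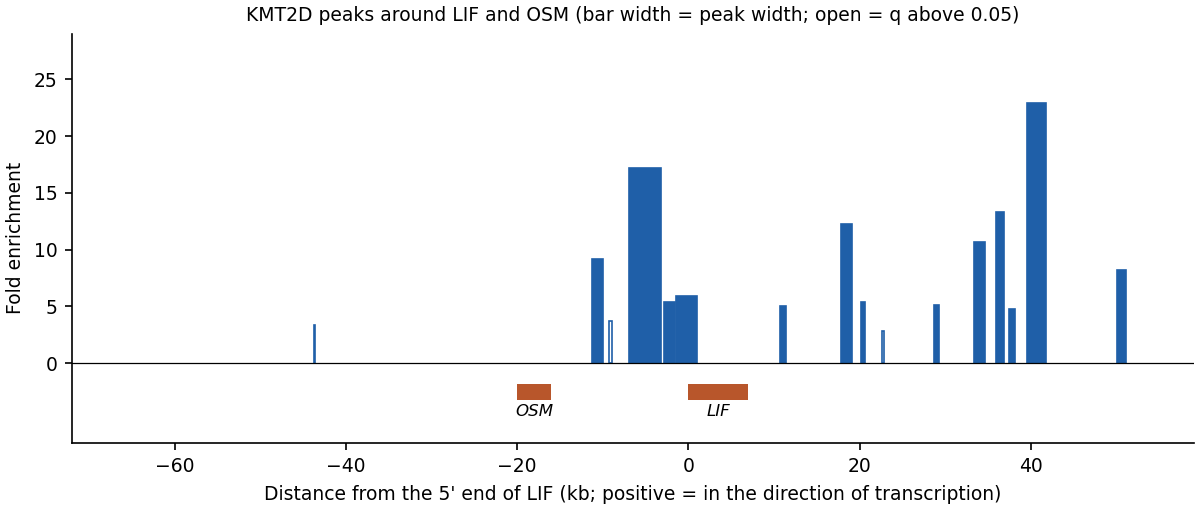
Peaks around LIF and OSM, with the distance from the 5′ end of LIF in kb on the horizontal axis (positive in the direction of transcription of both genes) and fold enrichment as bar height. Bars are as wide as the peaks, open bars have a q-value above 0.05, and the lower boxes are the genes. Tall bars stand on both sides of LIF at fold enrichments of 17.2 and 22.9, the start of LIF lies under a bar of 5.93, and OSM lies in a gap of 32352 bp.

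Among all clusters of the list, the LIF cluster stood near the top by several measures. With peaks joined over gaps of up to 12500 bp, it ranked 4th by number of peaks among 1071 clusters of at least 3 peaks. It was 2nd by bases covered and 5th by its highest fold enrichment. In it, 5 peaks had a fold enrichment of at least 10, more than in any other. Among the 21 other clusters with at least 10 peaks, the most was 4 and the median 1, and the highest fold enrichment was 17.4. The median fold enrichment within the LIF cluster, 5.93, was within the range of those 21 clusters (1.87 to 6.76). The genes were picked with peak counts and fold enrichments known, so these ranks are a description only.

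IL6 and IL11, the remaining cytokine genes, had few and weak peaks. IL6, the founding member of the family, had 1 peak, at positions 22766357 to 22767028 on chromosome 7. It reached up to the start, to within the 1 kb rounding of gene positions, with a summit about 0.5 kb upstream. Its fold enrichment was 3.75 and its q-value 0.22. The next peak outside the limit was 59.3 kb away (2.48, q-value 0.97). IL11, on chromosome 19, had a peak at its start (3.56, q-value 0.22), another 2.3 kb upstream (3.38, q-value 0.22) and another 25.8 kb past its 3′ end towards GARIN5B (4.64, q-value 0.0059). The start peaks of IL6 and IL11 and the second IL11 peak shared the same deposited −log10 p of 3.84 although 18, 17 and 16 fragments lay over their summits, because the p-value is computed on whole scaled counts. They cannot be ranked against each other.

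The receptor genes carried 4 peaks, none with a fold enrichment above 5.10. OSMR had a peak at its start (positions 38845891 to 38846229 on chromosome 5) with a fold enrichment of 4.47 and a q-value of 0.0059. A second peak lay inside the gene, 26.3 kb after the start, with 5.10 and a q-value of 0.00024. Their fragment numbers, 22 (13.8 to 33.3) and 27 (17.8 to 39.3), had overlapping intervals, and their difference was not tested. IL6ST, the shared receptor chain, had a start peak of 2.71 with a q-value of 1 and a peak 31.8 kb upstream of 4.11 with a q-value of 0.04. Its start peak was thus among the weakest of the 46, and under a q-value of at most 0.05 IL6ST kept only the distal one.

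STAT3 showed no peak at its start but 3 inside the gene. They stood close together between positions 40477117 and 40481715 on chromosome 17, 59.4 to 63.7 kb after the start and so towards the 3′ end of the 76.0 kb gene. Their fold enrichments were 7.38 (q-value 1e-08), 4.65 (q-value 0.0059) and 3.93 (q-value 0.04). The strongest had 38 fragments (26.9 to 52.2) and the others 23 and 19, with intervals of 14.6 to 34.5 and 11.4 to 29.7, so that all 3 overlapped. On the 5′ side, towards CAVIN1, 2 further peaks lay 32.8 kb (5.38) and 39.4 kb (5.20) before the start. Whether they lie in CAVIN1 was not analysed, since no GRCh37 annotation was at hand. All 5 STAT3 peaks passed the q-value limit of 0.05.

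SOCS3 had 9 peaks, most of them past its 3′ end, towards TMEM235. The strongest was 5.1 kb past the gene, at positions 76347744 to 76348278 on chromosome 17, with a fold enrichment of 8.65, 45 fragments (32.8 to 60.2) and a q-value of 4.8e-12. A peak 3.7 kb past the gene had 4.84, and 5 more between 14.0 and 42.4 kb past it ranged from 3.48 to 5.59. The start of SOCS3 had the weakest peak of the locus (2.84, 13 fragments, q-value 1), whose interval of 6.92 to 22.2 lay below that of the strongest. A further peak lay 24.3 kb upstream, towards PGS1 (4.65, q-value 0.0059). At 87.4 peaks per Mb (40.0 to 166) the SOCS3 window held 8.09 times the density of chromosome 17, which is 10.8 per Mb.

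**Figure D3:**
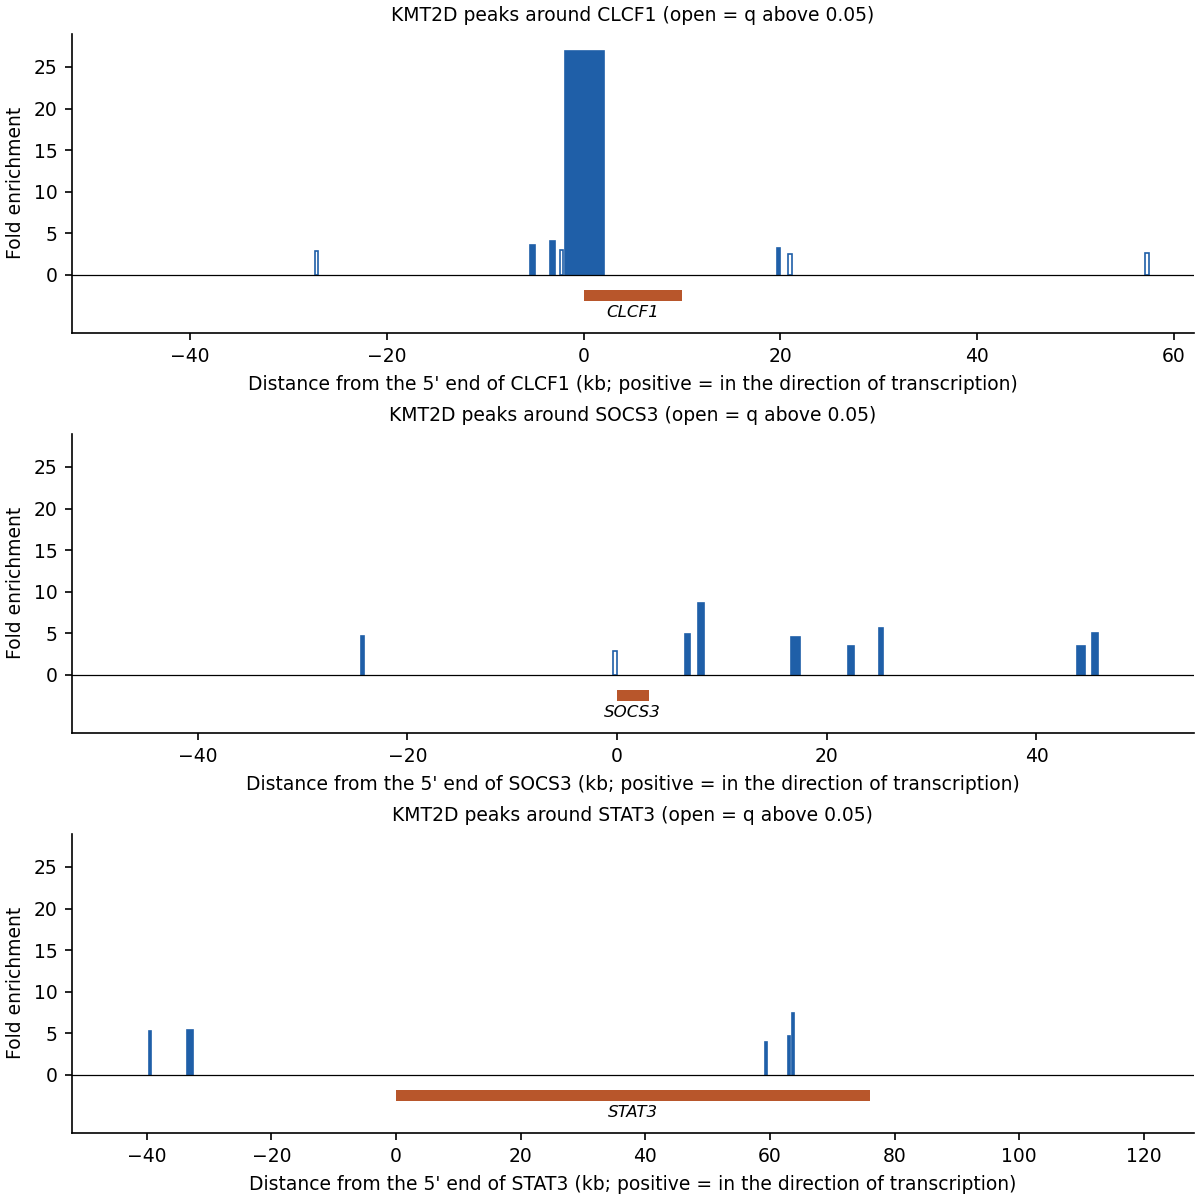
Peaks around CLCF1, SOCS3 and STAT3, drawn as distance from the 5′ end of each gene in kb (positive in the direction of transcription) against fold enrichment, with bars as wide as the peaks and open where the q-value is above 0.05. CLCF1 has 1 broad bar of 26.9 over its start, SOCS3 has its tallest bar of 8.65 past its 3′ end, and the bars of STAT3 stand inside the gene towards its 3′ end and before its start.

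All 9 loci held at least 1 peak, and 8 of the 9 held 1 with a q-value of at most 0.05, with IL6 as the exception. For comparison, at least 1 summit of any q-value fell in 20.6% of the 100 kb tiles of chromosomes 1 to 22 and X. At least 5 fell in 2.00% of them. The share of tiles with a peak at a q-value of at most 0.05 was not analysed here, so the 8 of 9 has no background beside it. The windows here were 103 to 199 kb long and all held a gene, which tiles need not, so the figures are not matched. LIF, OSM, CLCF1, STAT3 and SOCS3 had at least 5 peaks. Relative to the density of their own chromosome, the windows ranged from 2.17 times for IL6 to 15 times for LIF. For IL6, IL11, OSMR, IL6ST and STAT3 the counts of 1 to 5 peaks leave wide intervals. Each of these contains the density of its own chromosome, such as 0.241 to 53.1 peaks per Mb at IL6 beside the 4.38 of chromosome 7.

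Of the 46 peaks, 34 passed a q-value limit of 0.05 (73.9%, 95% Wilson interval 59.7 to 84.4%), where the background over all peaks was 58.5%. The interval treats peaks as independent, which close neighbours in a cluster need not be. The stricter limit of 0.01 left 28 (60.9%), where it was 47.7%. Median fold enrichment was 4.65 (95% interval 3.75 to 5.2). The median of 3.93 over the whole list lay inside that interval. A fold enrichment of at least 10 was found in 6 of the 46 (13.0%), where it was 4.18% of all peaks, and these were the CLCF1 start peak and 5 LIF peaks. Peaks wider than 1000 bp numbered 9 (19.6%), against 5.48% of all, and were likewise the CLCF1 start peak and 8 LIF peaks. Clusters of at least 3 held 29 of the 46 (63.0%), and 32.1% of all peaks. Since these values were in view when the genes were chosen, they describe the set and nothing is read from the differences.

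The high values belonged to CLCF1 and to the region of LIF and OSM, in which OSM had no peak of its own. LIF, OSM and CLCF1 together had 24 peaks with a fold enrichment up to 26.9 and a width up to 3999 bp. At the other 6 genes, 22 peaks reached at most 8.65 and 913 bp, and none was wider than 1000 bp or had a fold enrichment of 10. The share with a q-value of at most 0.05 at the other 6 was 17 of 22 (77.3%) beside 17 of 24 (70.8%), and the median fold enrichments were 4.61 and 5.09. The upper quartiles of fold enrichment were 5.08 at the other 6 and 9.56 at LIF, OSM and CLCF1, and the median widths were 357 and 604 bp. LIF, OSM and CLCF1 were grouped because their windows hold the high values, so these figures are a description only.

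**Figure D4:**
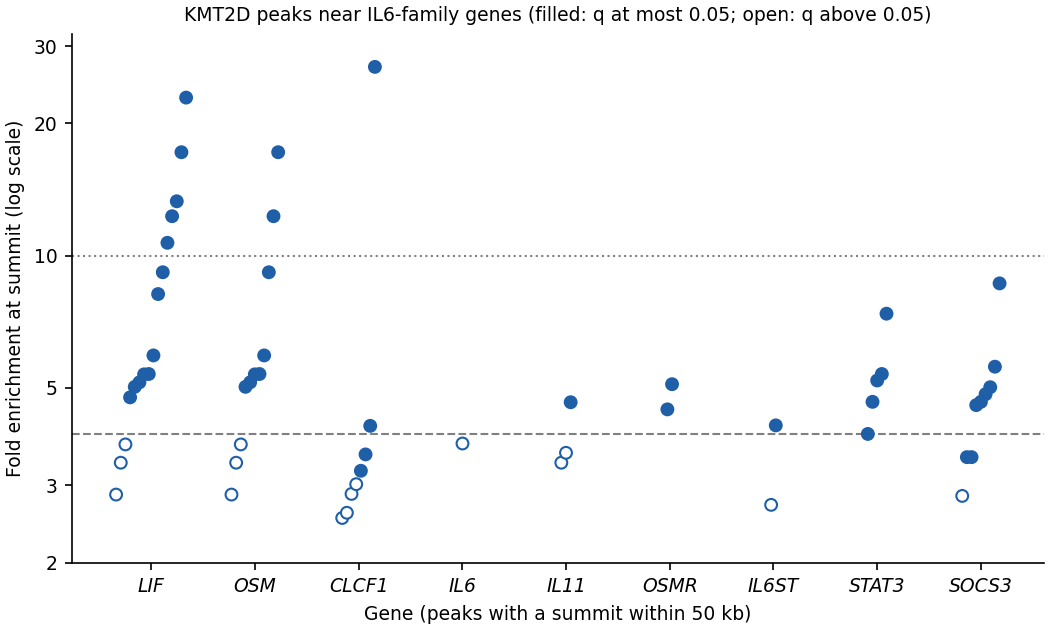
Fold enrichment at the summit (vertical axis, log scale) of every peak by gene, filled where the q-value is at most 0.05 and open where it is above, with dashes at the list's median of 3.93 and dots at 10. LIF and OSM share 11 peaks, each drawn under both genes. Values above 10 occur at LIF, OSM and CLCF1, and the other genes stay at or below 8.65.

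**Figure D5:**
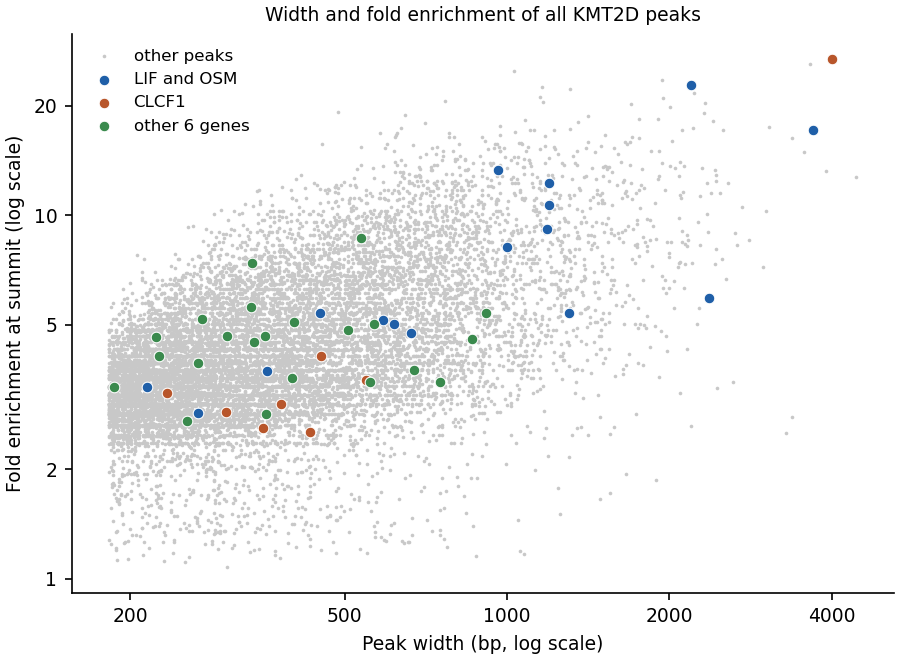
Width in bp (horizontal axis, log scale) against fold enrichment (vertical axis, log scale) for all 13808 peaks in gray, with LIF and OSM peaks in blue, CLCF1 in brown and the other 6 genes in green. The CLCF1 start peak sits at the upper right edge at 3999 bp and 26.9, and the peaks of the other 6 genes reach at most 913 bp and 8.65.

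Some peaks lay close to the limit of 50 kb. For OSM, the peak with a fold enrichment of 10.7 lay 50.2 kb away, just outside, while the peak of 5.15 lay 45.1 kb away, inside, and both counted for LIF. At CLCF1 the farthest peak inside was at 47.1 kb (2.60) and the nearest outside at 51.7 kb (5.68, 72 fragments). For LIF, IL11, OSMR, STAT3 and SOCS3 the nearest peak outside lay more than 100 kb away.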

How the data were processed

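ChIP was performed with an anti-KMT2D antibody on sonicated, formaldehyde-fixed chromatin of KMT2D-WT SCC23 cells. Bowtie2 alignment to hg19 (GRCh37), removal of reads without a unique position and MACS2 peak calling with a p-value limit of 0.01 were done by the authors. The reporting form gives 1 replicate, and the control is not named. The deposited list held 13808 peaks with a start, an end and a summit. The deposited fold enrichment is the ratio of scaled ChIP pileup to local background at the summit after 1 is added to each, so it lies below the plain ratio. The deposited −log10 p-value and −log10 q-value belong to the same position. The deposited score equals 10 times the −log10 p cut to a whole number in 100% of peaks. The submitters' processing notes also name deepTools.

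Summits within 50 kb of the 9 gene intervals were kept. Members, lists and tests were chosen with earlier results of these data known. The named items were all 9 genes, each peak of LIF, OSM and CLCF1 and, elsewhere, start, intragenic and strongest peaks. Fragments over each summit were rebuilt as the whole number that gives both the fold enrichment and the p-value, with 1 ChIP fragment worth 0.381 and the genomic background at 1.10 of the scaled unit. All 13808 peaks were matched, with a largest gap of 0.000652 in −log10 p. In 3 simulated lists, the smallest with 6179 peaks, at least 99.97% of fragment numbers were recovered exactly. These lists were made with the same formula for fold enrichment and p-value, so they check the rebuilding step only. The ChIP library was 2.63 times as deep as its control, and total depths were not analysed here. Strands came from GENCODE and neighbouring genes from RefSeq, both on GRCh38, and no coordinate was converted between builds, so further pathway genes and peak sequences were not analysed here. Promoter sequences came from RefSeq (GRCh38.p14), and the first of 2 starts was shown for SOCS3. Each chromosome was tiled in steps of 100 kb between its outermost peaks. Alternatives were stricter q-values, the upper 6904 peaks by fold enrichment, other windows and gaps, and removal of peaks with a raised local background. Software was Python 3.11.15 with pandas 2.3.3, scipy 1.17.1, matplotlib 3.10.9 and numpy 2.4.6.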

Additional observations from a re-analysis of the deposited data

How the results depend on the processing

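Of 43 alternative values, 34 stayed within 1.5 times the reported count or within the 95% interval of the reported value, and 9 lay outside. No value changed direction, but counts of peaks, loci or genes have no direction to change. The number of peaks near the 9 genes was 46, 28 under a q-value limit of 0.01 and 30 in the upper 6904 peaks by fold enrichment, by construction. The density ratio of the LIF and OSM window to chromosome 22 was 12.6 (7.22 to 20.5), 22.9 under that limit and 7.07 with a window of 100 kb around the genes. Median fold enrichment was 4.65 (3.75 to 5.2) and, under that limit, 5.37. The LIF cluster held 5 peaks in place of 15 with gaps of up to 5 kb. In alternatives chosen after seeing the data, genes with a peak at the start numbered 3 in place of 7 under a q-value limit of 0.05 or 0.01 and in the upper 6904 peaks. Leaving out the LIF, OSM and CLCF1 peaks, also chosen after seeing the data, gave a median of 4.61. No paired analysis was possible because 1 library was analysed. With 13 to 30 fragments over 7 of the 8 start peaks, this depth does not separate neighbours in their order, and which of the 12 peaks with a q-value above 0.05 would recur in another library is unknown.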
